A study of Mus musculus with 16 samples.

Results

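The genes described here encode the heterogeneous nuclear ribonucleoproteins (hnRNPs), the SR splicing factors, the subunits of the SF3A and SF3B complexes and the proteins of the small nuclear ribonucleoproteins (snRNPs). They were chosen by name, as the autosomal protein-coding genes of GENCODE M21 whose symbol starts with Hnrnp, Srsf and a digit, Sf3a or Sf3b and a digit, or Snrp, with the imprinted gene Snrpn left out. This gave 50 of the 20807 autosomal protein-coding genes, namely 19 Hnrnp, 11 Srsf, 9 Sf3 and 11 Snrp genes. The rule uses gene names alone.

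The libraries are chromatin immunoprecipitations (ChIP-seq) of mouse cells with an antibody against monoubiquitylated histone H2B (H2Bub1) or against RPB1, the largest subunit of RNA polymerase II (Pol II). According to the study, the RPB1 antibody recognises the unmodified C-terminal domain, so Pol II below stands for the peaks of this antibody. Wild-type cells (Atxn7l3+/+, WT) were compared with cells homozygous for a null allele of Atxn7l3 (Atxn7l3-/-, KO), the adaptor that the H2B ubiquitin proteases need for their activity. Both genotypes, of a DBA/2 x C57BL/6 background, were available as mouse embryonic stem cells (mESCs) kept with LIF and kinase inhibitors, and as mouse embryonic fibroblasts (MEFs) from E10.5 embryos without head and gut. Each of the 8 groups holds 1 library, so no difference below has a replicate check, and none carries a p-value. The lists held between 11963 and 45870 Pol II peaks and between 19725 and 48952 H2Bub1 peaks, and in both cell types the Pol II list was longer in WT and the H2Bub1 list longer in KO. The fibroblast markers fixed for the check of cell type had a Pol II promoter peak in both MEF libraries at 7 of 7 genes and in neither mESC library, while 6 of 7 stem cell markers had one in both mESC libraries. Esrrb was without a promoter peak in every library, Klf4 had one in all 4, and Tfcp2l1 had one in KO MEFs too. The Pol II fold of all 7 fibroblast markers was lower in KO than in WT MEFs. It was 18.5 (WT) and 5.84 (KO) at Prrx1, and 26.8 and 20.3 at Twist1. Over all genes with both peaks 67.5% were lower in KO MEFs. Whether the marker difference goes with the MEF differences below was not tested. The deleted part of Atxn7l3 does not include its promoter, where the Pol II fold was 3.61 (WT) and 3.71 (KO) in the stem cells and 20.9 (WT) and 23.4 (KO) in the fibroblasts, so this level does not check the genotype labels. Exons 2 to 12, which the study flanked for deletion, include chr11:102291898-102294642 under the exon numbering of all 4 GENCODE transcripts long enough. In mESCs H2Bub1 peaks covered 100% of this stretch in WT and 0.401% in KO, and Pol II peaks 23.9% and 13.7%. Since Pol II peaks remained there in KO mESCs, the stretch does not check the Pol II labels of mESCs. In MEFs the WT libraries had little there too, with 9.65% (WT) and 7.43% (KO) for H2Bub1 and 7.03% and 0% for Pol II, so the MEF labels were hardly checked.

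Pre-mRNA splicing is carried out by the spliceosome, whose building blocks are snRNPs. The Sm proteins, encoded by Snrpb, Snrpd1, Snrpd2, Snrpd3, Snrpe, Snrpf and Snrpg, form the ring around the small nuclear RNAs, and the SF3A and SF3B complexes are parts of the U2 snRNP that recognises the branch point. SR proteins mostly bind exons and favour their inclusion, whereas hnRNPs coat nascent transcripts and often act in the opposite way, and many genes of both families control their own level through alternative exons that lead to decay of the transcript. Pol II peaks lie at promoters and, on the most transcribed genes, over the gene body and past the polyadenylation site. H2Bub1 is placed on the transcribed part of genes behind the promoter and is removed by the proteases that need ATXN7L3.

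The promoters of the members held more CpG dinucleotides than the median promoter, and the sequences below show the kinds of element they carry. RefSeq start sites of build GRCm38 were found for 44 of the 50 genes, and each window runs from 250 bases before to 50 bases after the start. The median GC content of these windows was 60.3%, against 57% over one promoter of each of 15687 autosomal protein-coding genes, and the median number of CpG dinucleotides was 25.5 against 15. The letters GGGCGG, the GC box, were present on either strand in 31 of 44 windows (70.5%, against 48.6% of all 15687). CCGGAA, the core of ETS factor motifs, was present in 23 of 44 (52.3%, against 3132 of all 15687) and in 6 of 7 Sf3 promoters. TCTCGCGA, the CGCG element, was found in 4 of 44 windows (9.09%, against 1.53%), those of Hnrnph3, Snrpg, Srsf4 and Srsf10. CCAAT was found in 20 of 44 (45.5%, against 38.5%) and in 11 of 17 Hnrnp promoters, TATAAA in 6 of 44 (13.6%, against 12.9%), and GCATGCGC, the core of the NRF1 motif, in 1 of 44 (2.27%, against 3.79%). A match is a description of the letters and says nothing about binding.

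The printed promoters are those of Srsf7 and Srsf2, one or the other of which had the highest Pol II promoter fold of the members in each library, of Srsf10 and Snrpg with the CGCG element, and of Sf3b6 and Snrpe, each with 3 ETS matches and a Pol II peak in only one genotype of mESCs. Capitals mark every match of the 6 motifs on either strand, and adjacent or overlapping matches run together (the 2 CGCG matches of Srsf10 share their central letters). Sequences are from RefSeq (GRCm38.p6), written 5′ to 3′ on the strand of the gene.
Srsf7, chr17:80207256-80207555, minus strand: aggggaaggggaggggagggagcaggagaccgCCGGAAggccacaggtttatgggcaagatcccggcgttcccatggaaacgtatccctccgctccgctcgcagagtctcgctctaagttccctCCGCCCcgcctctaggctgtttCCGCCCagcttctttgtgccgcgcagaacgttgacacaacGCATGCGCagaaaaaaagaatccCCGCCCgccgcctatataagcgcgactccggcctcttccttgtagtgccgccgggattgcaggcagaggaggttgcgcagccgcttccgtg
Srsf2, chr11:116853045-116853344, minus strand: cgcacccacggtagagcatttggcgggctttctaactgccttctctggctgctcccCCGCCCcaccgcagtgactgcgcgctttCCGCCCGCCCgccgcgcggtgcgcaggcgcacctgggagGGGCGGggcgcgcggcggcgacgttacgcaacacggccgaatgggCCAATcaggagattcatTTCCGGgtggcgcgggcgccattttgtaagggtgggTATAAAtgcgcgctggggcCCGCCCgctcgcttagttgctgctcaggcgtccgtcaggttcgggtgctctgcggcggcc
Srsf10, chr4:135855821-135856120, plus strand: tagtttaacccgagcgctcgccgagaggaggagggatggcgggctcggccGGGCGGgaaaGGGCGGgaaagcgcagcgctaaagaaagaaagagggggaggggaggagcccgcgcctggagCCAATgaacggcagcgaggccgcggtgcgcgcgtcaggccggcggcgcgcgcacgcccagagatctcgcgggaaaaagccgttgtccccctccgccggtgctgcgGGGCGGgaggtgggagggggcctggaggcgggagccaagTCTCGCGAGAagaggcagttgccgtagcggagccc
Snrpg, chr6:86371290-86371589, plus strand: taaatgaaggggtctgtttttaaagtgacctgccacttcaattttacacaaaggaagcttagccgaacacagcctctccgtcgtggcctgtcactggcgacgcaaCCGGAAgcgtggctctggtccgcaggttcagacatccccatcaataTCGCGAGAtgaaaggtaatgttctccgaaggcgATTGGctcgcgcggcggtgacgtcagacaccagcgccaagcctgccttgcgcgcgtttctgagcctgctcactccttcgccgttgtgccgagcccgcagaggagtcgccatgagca
Sf3b6, chr12:4817358-4817657, plus strand: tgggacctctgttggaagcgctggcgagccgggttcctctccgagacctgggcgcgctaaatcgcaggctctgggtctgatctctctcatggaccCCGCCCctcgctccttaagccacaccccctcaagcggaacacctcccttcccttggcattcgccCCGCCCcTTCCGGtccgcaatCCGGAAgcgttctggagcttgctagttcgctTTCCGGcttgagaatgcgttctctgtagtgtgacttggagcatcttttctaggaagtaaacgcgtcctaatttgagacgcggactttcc
Snrpe, chr1:133610231-133610530, minus strand: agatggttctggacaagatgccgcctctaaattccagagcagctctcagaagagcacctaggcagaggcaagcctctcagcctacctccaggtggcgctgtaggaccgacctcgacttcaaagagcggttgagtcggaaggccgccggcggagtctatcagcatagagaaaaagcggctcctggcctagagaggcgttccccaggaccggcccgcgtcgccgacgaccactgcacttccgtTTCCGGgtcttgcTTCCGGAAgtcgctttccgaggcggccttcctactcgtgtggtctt

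At these promoters Pol II was the rule in both cell types and both genotypes. A promoter call needed a Pol II peak within 1000 bp of the transcription start site (TSS) of the gene record. Among mESCs, WT had one at 40 of 50 genes (80%) and KO at 38 (76%), where 35.3% and 32.1% of all autosomal protein-coding genes had one. Among MEFs, WT had one at 45 genes (90%) and KO at 46 (92%), with 55.3% and 52.3% over all genes. In 36 of 50 genes (72%) the promoter was called in all 4 libraries, with 26.1% over all genes, and in 4 genes (8%) in none, with 41.1% over all genes. By family, all 4 libraries had a peak at 16 of 19 Hnrnp and 10 of 11 Srsf promoters, but at 5 of 9 Sf3 and 5 of 11 Snrp promoters.

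Promoters with a call in one genotype alone were few. In mESCs 4 genes (8%) had a peak in WT only, with 8.04% over all genes, and 2 (4%) in KO only, with 4.85% over all genes. Sf3a1, a subunit of SF3A, had a fold over background of 3.54 in WT mESCs and no peak within 16559 bp of its TSS in KO mESCs, while both MEF libraries had a peak (9.92 and 8.62). The Sm protein genes Snrpd3 (3.25) and Snrpe (4.37) had a peak in WT mESCs and none in KO mESCs, and folds of 20.8 and 17.1 (Snrpd3) and 18.9 and 14.0 (Snrpe) in WT and KO MEFs. Sf3a3 and Sf3b6 were the reverse, each with a fold of 4.26 in KO mESCs and no WT peak nearer than 13653 and 23199 bp, and both had peaks in the 2 MEF libraries. All 5 of these mESC peaks were below the median of the members in their library, and the folds of the members ran from 2.57 to 16.7 in WT and from 3.55 to 23.2 in KO mESCs. The fourth gene called in WT only, Hnrnpl, is a matter of the window. Its WT peak of 11.3 reached to within 232 bp of the TSS but had its summit 2398 bp downstream, and the KO peak began 1813 bp downstream. In MEFs no gene was called in WT only (4.43% over all genes), and Snrpa1, of the U2 snRNP, was the single gene called in KO only (1.51% over all genes), where the WT peak lay 1119 bp and the KO peak 928 bp from the TSS.

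The gene record can start far upstream of the promoter in use. When a peak within 1000 bp of any annotated coding transcript start was asked for, 40 of 50 genes (80%) had one in all 4 libraries, with 28.2% over all genes. In none of the libraries had 2 members one, against 7928 of all 20807 genes. In each MEF library 48 of 50 (96%) had one, with 58.2% (WT) and 55.3% (KO) over all genes. Hnrnpf, whose protein binds G-rich sequence, had no call at its record start but a peak at a start 6466 bp downstream, with folds of 8.09 in WT mESCs, 11.5 in KO mESCs and 28.5 in WT MEFs. In KO MEFs its highest start peak, of 18.3, lay at another start, 16657 bp downstream. Snrpc, of the U1 snRNP, had one in both MEF libraries at a start 1937 bp downstream. Hnrnpm and Snrpa1 likewise had peaks in all 4 libraries at starts inside the record. Sf3b5 and Srsf12 had none at any start. The nearest Pol II peak to Sf3b5 lay 2948 bp (WT) and 2691 bp (KO) from its TSS in MEFs and at least 55391 bp away in mESCs, and for Srsf12 it was never nearer than 19147 bp. Snrpb2 and Snrpd2 were called in both MEF libraries (9.65 and 5.45, and 9.13 and 8.32, in WT and KO) and in neither mESC library.

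The highest Pol II folds belonged to Srsf genes and a few Hnrnp genes. The fold is the height of the peak over the local background of its own library, so a ratio of KO to WT compares peaks relative to 2 separate backgrounds and gives no absolute level. Srsf7 had 13.6 (WT) and 23.2 (KO) in mESCs, then 44.0 (WT) and 29.4 (KO) in MEFs, and the other genes are given in the same order. Srsf2, the gene of SC35, had 16.7 and 18.5 in mESCs and 24.9 and 39.4 in MEFs. Srsf7 was thus the highest of the 50 in KO mESCs and WT MEFs, and Srsf2 in WT mESCs and KO MEFs. Hnrnpab had 16.4 and 12.6 in mESCs and 31.0 and 35.5 in MEFs. Hnrnpa2b1, which encodes a pair of abundant hnRNPs, had 10.9 and 16.6 in mESCs and 33.0 and 20.2 in MEFs. Among the Sf3 genes Sf3b1, the branch point binding subunit, had 8.67 and 7.47 in mESCs and 24.4 and 26.6 in MEFs, the highest fold of this family except in KO mESCs, where Sf3a2 was higher. Sf3a2 had 7.02 and 8.37, and 20.9 and 21.8. Among Snrp genes Snrpb had 6.44 and 3.74 in mESCs and 20.6 and 21.2 in MEFs, and Snrpa, of the U1 snRNP, 5.86 and 5.89, and 15.1 and 19.4. The well studied regulator Srsf1 had 8.27 and 6.88 in mESCs and 16.6 and 15.2 in MEFs, and Srsf3 had 10.2 and 11.9, then 26.7 and 28.6.

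**Figure D1:**
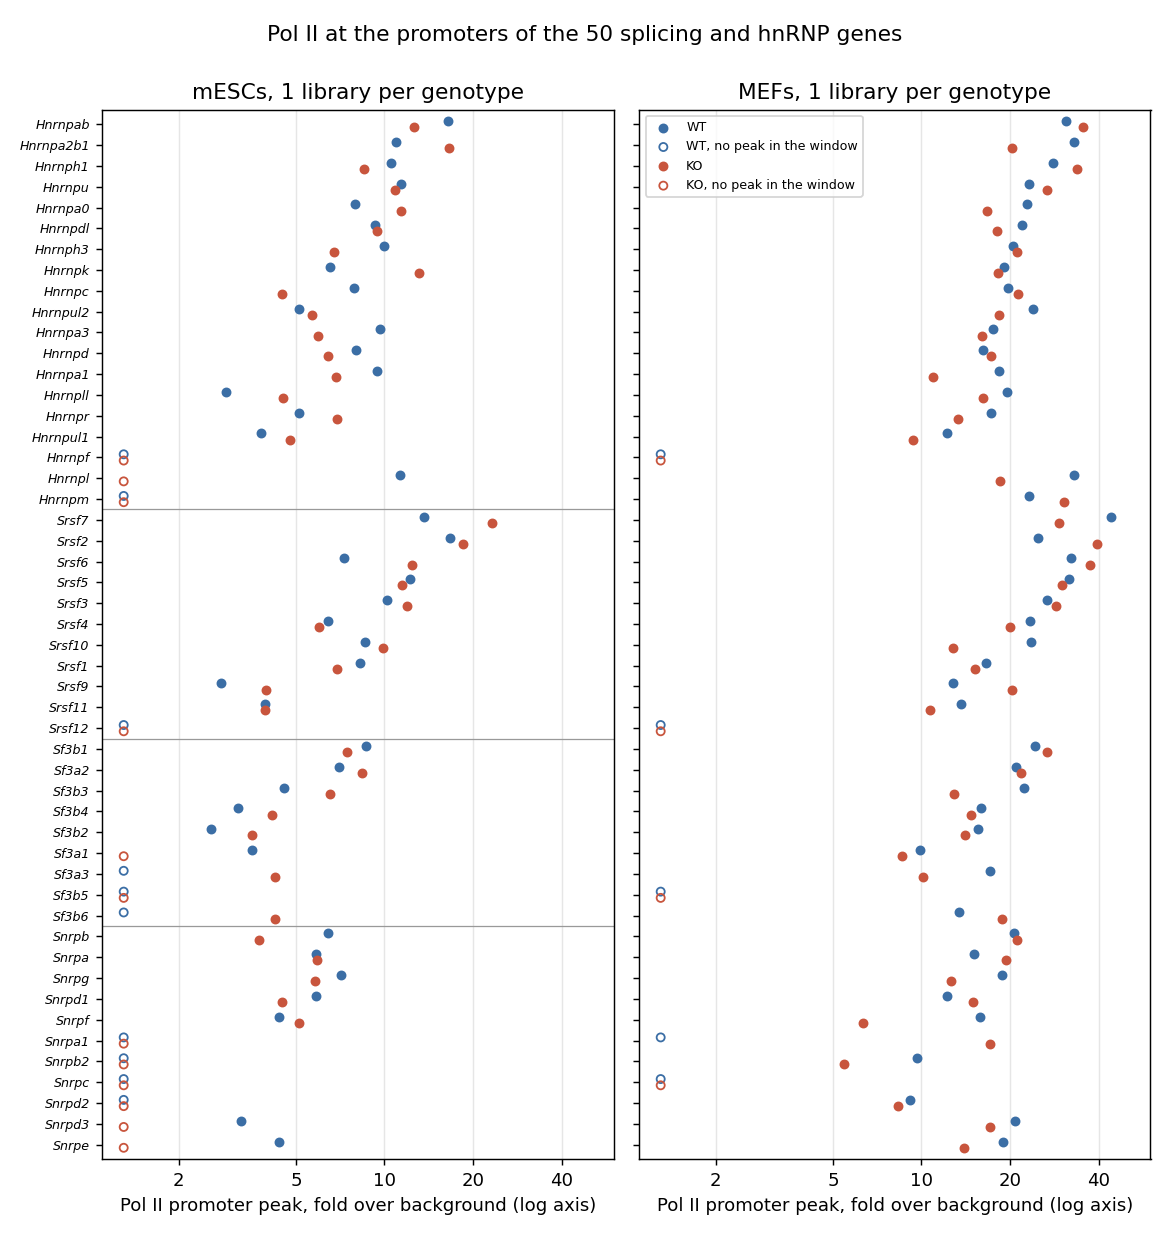
Pol II promoter fold (log axis) of each of the 50 genes in mESCs (left) and MEFs (right), 1 filled point per library for WT and KO, with genes grouped by family and ordered by their mean fold where all 4 libraries had a peak. Open circles at the left edge mark no peak within 1000 bp of the gene-record start; 45 of 50 genes had a WT peak in MEFs and 40 in mESCs.

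Where a peak was called, the promoter fold of the members had a median of 7.19 and 6.63 in mESCs and of 19.7 and 17.7 in MEFs (WT, then KO). Over all autosomal protein-coding genes with a peak it was 4.39 and 4.53, and 13.3 and 11.6. Between genotypes the members moved in both directions and little on balance. On the log2 scale the KO over WT ratio of the fold had a median of 0.09 over 36 genes in mESCs, where all genes had 0.02 and the isolated members, at least 5000 bp from other genes, had -0.10. It was -0.13 over 45 genes in MEFs, where all genes had -0.22. The fold was lower in KO for 15 of 36 members (41.7%, against 47.8% of all genes with both peaks) in mESCs and for 28 of 45 (62.2%, against 67.5%) in MEFs.

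Single genes moved further than these medians. In mESCs the largest log2 ratios were those of Hnrnpk (1.01, from 6.52 to 13.1), a gene of a poly(C)-binding protein that shares this peak with Rmi1, and of Srsf6 and Srsf7 (0.77 each). The smallest were those of Hnrnpc (-0.81, from 7.86 to 4.50), Snrpb (-0.78) and Hnrnpa3 (-0.70). In MEFs the largest were those of Srsf9 (0.67), Srsf2 (0.66) and Sf3b6 (0.48), and the smallest those of Snrpf (-1.32, from 15.8 to 6.35), Srsf10 (-0.87) and Hnrnpl (-0.84). None of the genes with the 3 largest or 3 smallest ratios in one cell type was among those of the other. With 1 library per group the spread that such ratios have between libraries of one genotype is unknown.

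Several promoter peaks belong to more than one gene. Another protein-coding gene started within 2000 bp of 16 members, of which 10 were divergent pairs and 6 had starts that overlapped. In WT MEFs the same Pol II peak was taken for both genes in all of these pairs, for example Hnrnpa1 and Cbx5 (616 bp apart), Hnrnpa2b1 and Cbx3 (466 bp), Srsf7 and Ttc39d (153 bp) and Srsf11 and Lrrc40 (23 bp). Their fold cannot be assigned to either gene, which holds for Sf3a1 (with Ccdc157) and Snrpd3 (with Gucd1) among the genes called in one genotype alone. The body of 13 members overlapped another protein-coding gene, and 18 members were at least 5000 bp from every other.

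Beyond the promoter, Pol II was spread over the bodies of these genes in WT MEFs and less so in KO MEFs. The body was taken from 1000 bp past the TSS to the gene end. For MEFs a body peak was called at 42 of 50 genes (84%) in WT, with 42.2% over all genes, and at 38 (76%) in KO, with 33.9% over all genes. For mESCs it was called at 22 (44%) in WT, with 20.9% over all genes, and at 23 (46%) in KO, with 13.6% over all genes. Many of these peaks had their summit outside the body. With the summit required in it, the MEF shares of the members were 74% (WT) and 58% (KO), with 32.8% and 25.9% over all genes. The mESC shares were then 20% for both genotypes, with 17.9% (WT) and 11.5% (KO) over all genes, so that in WT mESCs the members were near the background. The share of the body inside a peak was lower in KO than in WT MEFs for 38 of 50 genes (76%), where 34.5% of all genes were lower, and higher for 5 (10%), where 10.1% were higher. In mESCs 15 genes (30%) were lower and 11 (22%) higher in KO, against 18.2% and 5.21% of all genes. In MEFs the covered share of the body had a median of 22.3% (WT) and 5.81% (KO), and in mESCs the median was 0% for both.

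The long stretches were those of Srsf and Hnrnp genes. The median covered share in MEFs was 43.0% in WT and 13.5% in KO over the 11 Srsf genes, of which 10 were lower in KO and the last, Srsf12, was without Pol II. Over the 19 Hnrnp genes it was 52.5% and 28.8%, with 18 lower in KO. The Sf3 genes had 5.22% and 0.840%, with 5 of 9 lower, and the Snrp genes 6.01% and 1.72%, with 5 of 11 lower. Srsf7 went from 54.1% in WT to no body peak in KO MEFs, and Srsf9 from 29.5% to none. Srsf3 had 84.2% in WT and 25.0% in KO, Srsf6 had 87.5% and 29.7%, and Srsf2 had 75.3% and 20.7%. The 3 members with the most Pol II covered bases in WT MEFs were Hnrnpu, which encodes a chromatin-associated hnRNP (84.2% in WT and 49.7% in KO), Hnrnpl (96.6% and 76.7%) and Hnrnpf (52.5% and 23.8%). Hnrnpab was covered almost throughout in both (100% in WT, and the highest share of any member in KO). The 5 genes that were higher in KO were Hnrnpa0 (60.7% and 62.7%), Sf3a2, Sf3b5, Snrpa1 and Snrpg.

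A lower body share in KO MEFs was also frequent at other strongly occupied genes. The 2330 genes with promoter peaks in both MEF libraries and a WT fold at or above the median of the members were lower in KO at 65.2%, and the members at or above that median at 21 of 23 (91.3%). Of 78 ribosomal protein genes 75.6% were lower. The WT MEF list had 45870 Pol II peaks and the KO list 32232, and with both lists brought to equal numbers by peak significance 68% of the members were lower and 14% higher in KO, against 30.3% and 12.1% of all genes. At that setting 58.3% of the same 2330 genes and 19 of the 23 members were lower (82.6%). In mESCs it left 26% of the members lower and 24% higher in KO, against 12.9% and 6.55% of all genes. The part of list length in the remaining difference was not tested.

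**Figure D2:**
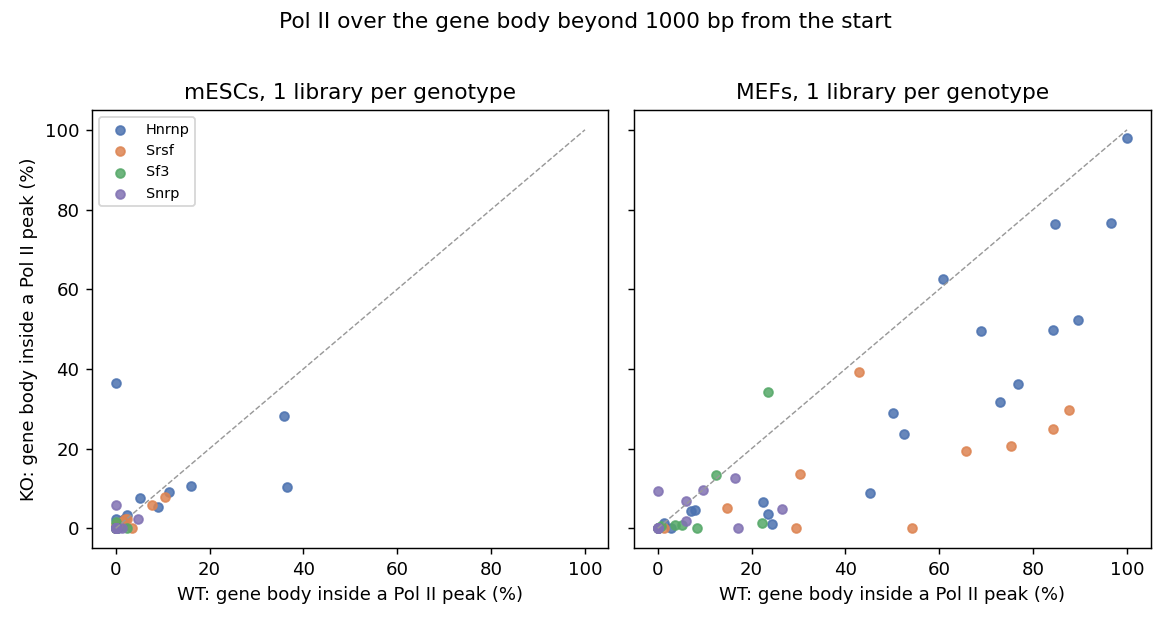
Share of the gene body, from 1000 bp past the TSS to the gene end, inside a Pol II peak in WT (horizontal axis, percent) and KO (vertical axis, percent), 1 point per gene, coloured by family, with mESCs left and MEFs right. In MEFs 38 of 50 points lie below the dashed line of equal shares, most of them Hnrnp and Srsf genes, and in mESCs most points lie near 0%.

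Where the body peaks sat was also recorded. In WT MEFs 143 peak summits lay in the bodies of the members and 71 in KO MEFs, against 18 and 13 in mESCs. Over all genes the summits in bodies were also fewer in KO, with 24778 (WT) and 16342 (KO) in MEFs, then 6573 (WT) and 3554 (KO) in mESCs. Of these summits 32.9% in WT and 39.4% in KO MEFs, and 9 of 18 and 7 of 13 in mESCs, fell in exons of coding transcripts, which make up 21.0% of the body bases of these genes. Over all genes 21.23% (WT) and 23.96% (KO) of the MEF summits, and 39.4% and 41.0% of the mESC summits, fell in exons, which make up 6.54% of the body bases. With each gene cut into 10 bins of equal length, the mean covered share in WT MEFs was 71.8% in bin 1, 31.1% in bin 5 and 35.5% in bin 10. Over all genes these bins had 26.2%, 7.32% and 11.3% in WT MEFs, then 23.3%, 5.21% and 6.32% in KO MEFs. For the members in KO MEFs it was 67.2%, 13.9% and 18.4%, so that the first bin differed least between the genotypes of these 3.

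Past the gene end Pol II peaks of the antibody used here were less often called in KO. The study reported a slight increase of Ser2-phosphorylated Pol II toward and past the gene end in KO mESCs. That form was not analysed here. A peak within 3000 bp downstream of the end was found in WT MEFs at 47 of 50 genes (94%, with 36.7% over all genes) and in KO MEFs at 36 (72%, with 25% over all genes). The WT mESC library had one at 30 genes (60%, with 18.3% over all genes) and the KO mESC library at 20 (40%, with 11% over all genes). No member had such a peak in KO alone in either cell type, where 1.3% (mESCs) and 1.47% (MEFs) of all genes had. In WT alone 10 members (20%) had it in mESCs, with 8.59% over all genes, and 11 (22%) in MEFs, with 13.2% over all genes. The families differed in this count. Of the 11 in MEFs, 6 were among the 11 Snrp genes (54.5%), 2 among the 19 Hnrnp genes, 2 among the 9 Sf3 genes and 1 among the 11 Srsf genes. In mESCs the 10 comprised 4 Srsf, 3 Sf3, 2 Hnrnp and 1 Snrp gene. Among genes with promoter peaks in both MEF libraries the WT-only share was 21.2%, and among such members it was 22.2%, so the MEF count is near that of comparable genes. In mESCs 850 of 5663 such genes (15.0%) and 7 of 36 such members (19.4%) had it in WT alone. At the position 1000 bp past the end, a peak covered 39 of 50 genes in WT MEFs but 24 in KO MEFs (78% and 48%, where all genes had 21.3% and 12.1%). In mESCs it covered 17 genes (WT) and 12 (KO), which is 34% and 24%, where all genes had 7.4% and 3.55%. At the gene end itself the MEF counts were 25 and 9 (50% and 18%, where all genes had 13.4% and 7%), and the mESC counts were 2 and 2 (4% each, where all genes had 3.84% and 1.99%). Over all genes the shares in KO were thus also lower at both positions.

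The peaks past the end could be as high as those at promoters. Hnrnpu had downstream folds of 14.7 (WT) and 12.5 (KO) in mESCs, then 31.3 and 29.1 in MEFs. Hnrnpa3 had 20.1 and 9.62 in mESCs, above its promoter fold of 9.68 and 5.94, and 21.5 and 16.7 in MEFs. For Hnrnpk the values were 4.58 and 4.34, and 22.8 and 8.75. The peaks of Srsf4, Srsf5 and Srsf6 were present in WT mESCs (3.73, 3.83 and 3.90) and absent in KO mESCs, and those of the Sm genes Snrpb (3.81), Snrpf (4.13) and Snrpd3 (6.69) were present in WT MEFs and absent in KO MEFs. Downstream neighbours can contribute to these peaks. Among the 25 members with no other protein-coding gene within 5000 bp past the end, 24 and 16 (WT, then KO) had a peak in MEFs and 11 and 9 in mESCs. Over all genes with such an end the shares were 23.98% and 13.72% in MEFs and 8.997% and 4.352% in mESCs. Of the 10 members with it in WT mESCs alone, 2 were of this kind.

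The ribosomal protein genes, which are also transcribed at a high level, differed from this. In MEFs 74 of 78 had a downstream peak in both genotypes and none had it in WT alone, against 11 of 50 members. In mESCs, WT had one at 73 and KO at 69. The median length of the ribosomal protein genes was 3328.5 bp, against 10446.5 bp for the members. Their median covered share of the body in MEFs was 87.0% (WT) and 47.1% (KO). A body peak that runs over the gene end also counts as a downstream peak, and its part in this contrast was not tested. Of the 5501 genes with a MEF promoter peak in both genotypes and no neighbour past the end, 48.4% had a downstream peak in WT and 27.5% in KO, against 21 of 21 and 14 of 21 members of the same kind.

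**Figure D3:**
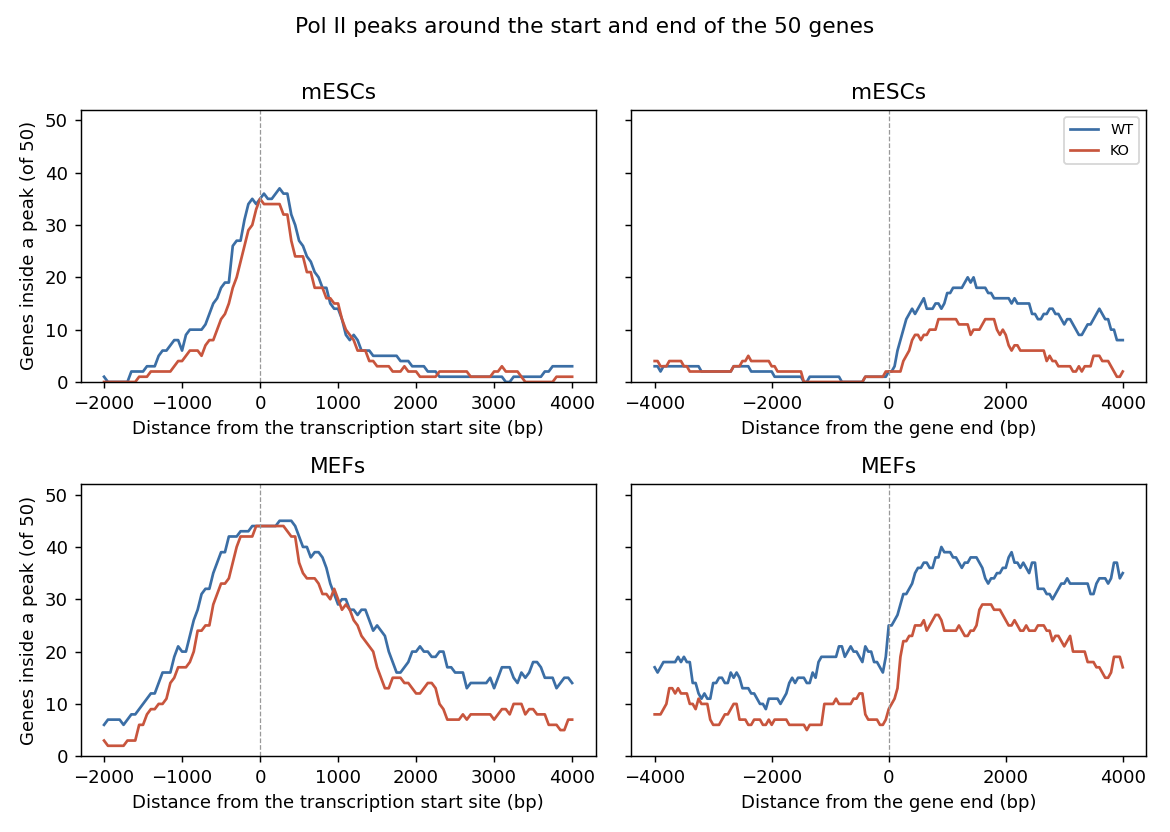
Number of the 50 genes inside a Pol II peak at each distance from the TSS (left, bp) and from the gene end (right, bp), in steps of 50 bp, for WT and KO in mESCs (top) and MEFs (bottom). The curves of the 2 genotypes nearly meet at the TSS, with 44 genes each in MEFs and 35 each in mESCs, and part past the gene end, with 39 genes in WT and 24 in KO at 1000 bp in MEFs.

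H2Bub1 covered more of the members in KO than in WT, by far more so in MEFs. The median share of the gene, from TSS to gene end, inside an H2Bub1 peak was 38.5% (WT) and 91.6% (KO) in fibroblasts but 40.5% (WT) and 57.2% (KO) in stem cells. All autosomal protein-coding genes had medians of 0% and 6.37% in MEFs and of 1.31% and 6.66% in mESCs. The share was higher in KO MEFs at 47 of 50 genes (94%), with 53.8% over all genes, and lower at none, with 0.529% over all genes. In mESCs it was higher in KO at 34 genes (68%), with 54.2% over all genes, and lower at 14 (28%), with 9.83% over all genes. The share was equal at 3 members (6%) in MEFs and 2 (4%) in mESCs, but at 45.6% and 35.9% of all genes. Such ties hold down the shares over all genes in both directions. At 23 of 50 genes (46%) the whole gene lay inside peaks in KO MEFs, with 6% over all genes, and at 2 (4%) in WT MEFs, with 0.207% over all genes. The counts were 2 (4%) in WT mESCs, with 1.55% over all genes, and 4 (8%) in KO mESCs, with 5.16% over all genes.

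In MEFs the largest rises were those of Sf3a2 (10.8% in WT and 100% in KO), Hnrnpa1 (18.1% and 100%), Sf3b6 (20.4% and 100%), Sf3b2 (11.0% and 88.1%) and Hnrnpu (27.9% and 100%). The 3 genes without a difference were Hnrnpab and Hnrnpa0, fully covered in both libraries, and Srsf12, covered in neither, and the next smallest were Srsf5 (96.9% and 100%) and Snrpd3 (79.7% and 89.8%). Among the well known members Hnrnpl had 55.9% and 100%, Hnrnpk 49.3% and 75.6%, Srsf1 44.2% and 100%, Srsf3 76.1% and 100%, Sf3b1 30.0% and 67.0%, and Snrpb 51.4% and 100%. The difference was seen in every family, with KO medians of 100% for Hnrnp and Srsf, 88.1% for Sf3 and 80.2% for Snrp genes and WT medians of 42.0%, 49.8%, 11.0% and 35.7%. The mean fold of the peaks over these genes was higher as well, with a median log2 ratio of KO to WT of 0.52 over 47 genes (0.34 over all genes). The WT median rests on weak peaks. With peaks of a -log10 q of at least 3 alone, the WT MEF median was 0% and the KO median 90.2%, and 94% of the members were higher in KO.

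**Figure D4:**
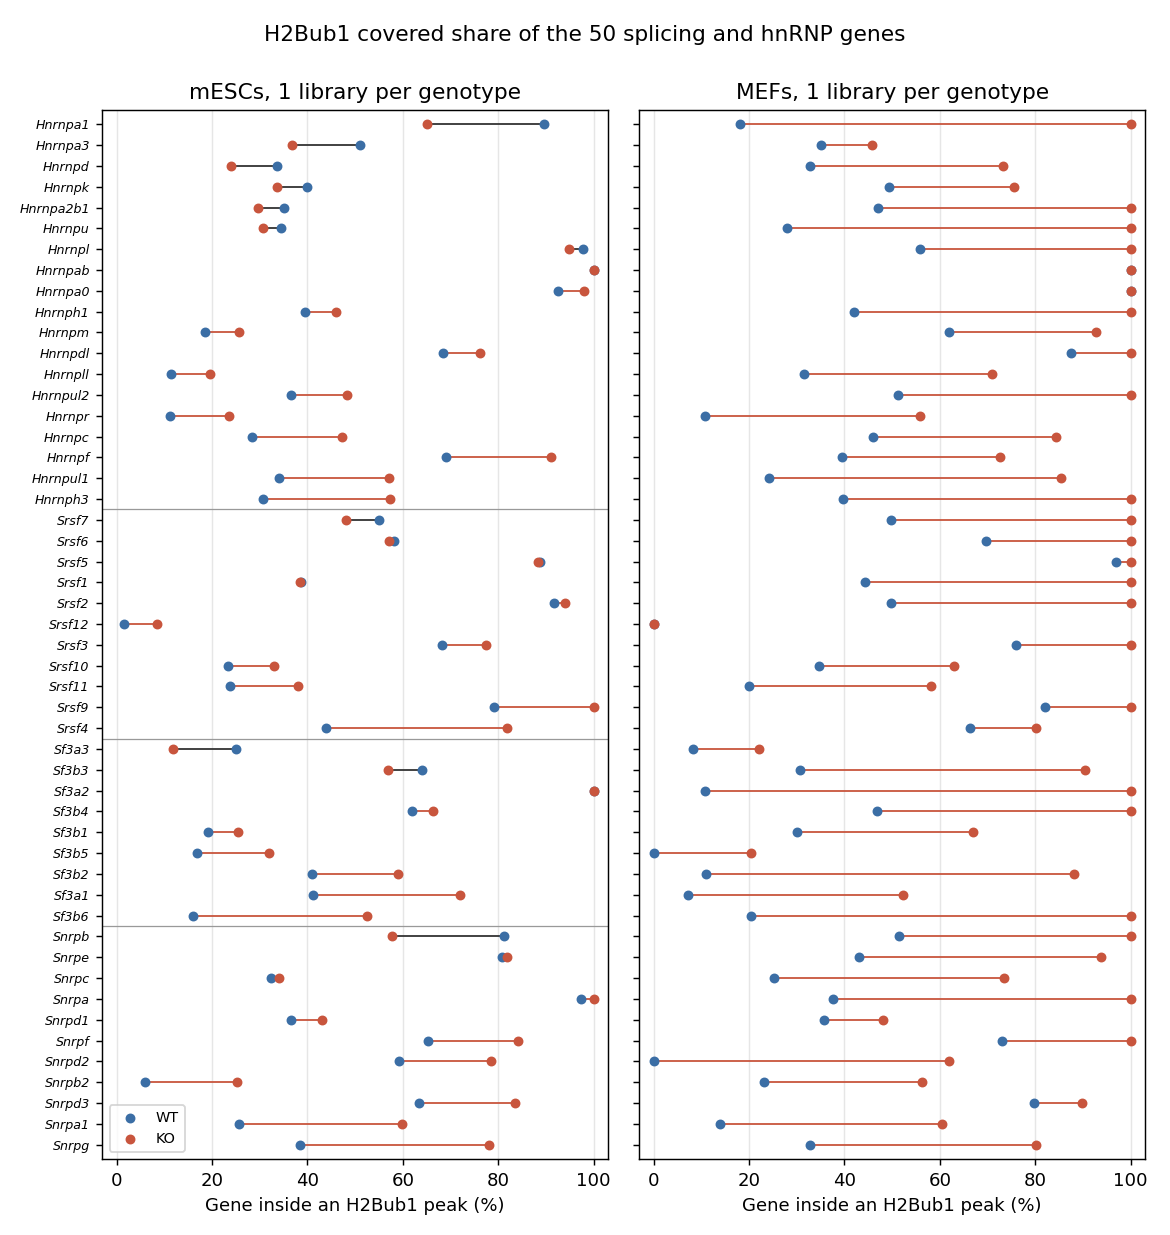
Share of each gene inside an H2Bub1 peak (percent) in WT and KO, mESCs left and MEFs right, with 1 library per point, genes grouped by family and ordered by the difference in mESCs. Red lines join genes that were higher in KO and dark lines those that were lower; 14 genes were lower in KO mESCs and none in KO MEFs.

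In mESCs the direction was divided. The largest rises in KO were those of Snrpg (38.3% in WT and 78.1% in KO), Srsf4 (43.9% and 81.9%), Sf3b6 (15.9% and 52.6%), Snrpa1 (25.6% and 59.9%) and Sf3a1 (41.3% and 71.9%). The largest falls were those of Hnrnpa1 (89.6% and 65.0%), Snrpb (81.2% and 57.8%), Hnrnpa3 (51.0% and 36.8%), Sf3a3 (24.9% and 11.8%) and Hnrnpd (33.5% and 24.1%). Smaller falls were seen at Hnrnpa2b1, Hnrnpk, Hnrnpl, Hnrnpu, Sf3b3 and Srsf7, and those of Srsf1, Srsf5 and Srsf6 were under 1 percentage point. By family 7 of 19 Hnrnp and 4 of 11 Srsf genes were lower in KO mESCs, but 2 of 9 Sf3 and 1 of 11 Snrp genes. All 14 were higher in KO MEFs. With a -log10 q of at least 3, 11 of the 14 remained lower in KO mESCs and Hnrnpd, Sf3a3 and Snrpb were higher (0.852, 11.8 and 0.288 points), and with equal numbers of peaks, with joined peaks or with the first 1000 bp left out, all 14 did.

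Of the 4 families the Srsf genes had the highest H2Bub1 fold in WT mESCs, and in KO mESCs their median fold was lower. The mean fold over the covered bases had a median of 6.49 in WT and 5.41 in KO for Srsf genes, with a median log2 ratio of -0.18. Srsf6 had 9.47 in WT and 8.14 in KO, Srsf2 had 9.45 and 7.19, and Srsf7 had 8.63 and 7.05. For Hnrnp genes the medians were 4.90 and 4.19, for Sf3 genes 3.00 and 3.56, and for Snrp genes 3.49 and 3.71. Over all 50 genes the median log2 ratio was 0.04, and over all autosomal protein-coding genes 0.07. In WT MEFs the same 3 Srsf genes had 5.01, 4.40 and 3.94, and in KO MEFs 7.48, 4.23 and 5.14.

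A lower share in KO mESCs was also frequent at other strongly occupied genes. Of the 5663 autosomal genes whose promoter was called for Pol II in each mESC library 84.7% were higher in KO. Of the 787 of them with a WT Pol II fold at or above the median of the members, 64.7% were higher and 22.6% lower. Of the 18 members at or above this median 9 (50%) were higher and 8 (44.4%) lower. Of the 78 ribosomal protein genes 22 (28.2%) were higher and 25 (32.1%) lower in KO mESCs, and 66 (84.6%) were higher in KO MEFs. A share near 100% in WT leaves no room for a rise, which holds for many of the short ribosomal protein genes, whose median covered share was 100% in both mESC libraries.

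Along the gene, the H2Bub1 peaks of KO began further upstream. At the TSS itself 11 of 50 genes were inside a peak in WT MEFs but 44 in KO MEFs (22% and 88%, where all genes had 3.65% and 36.1%). In mESCs the counts were 30 (WT) and 43 (KO), which is 60% and 86%, where all genes had 18.7% and 39.6%. At 500 bp upstream the counts were 3 and 35 in MEFs (6% and 70%, where all genes had 2.65% and 22.7%) and 16 and 29 in mESCs (32% and 58%, where all genes had 10.7% and 24.4%). The shares over all genes were thus also higher in KO at both positions. At the gene end, peaks covered 6 genes in WT MEFs but 27 in KO MEFs, whereas 9 were covered in each mESC library. All genes had 1.89% (WT) and 12.3% (KO) in MEFs, then 10.3% (WT) and 14.3% (KO) in mESCs, at that position. The mean covered share fell from the first to the last of the 10 bins, from 79.7% to 22.1% in WT mESCs and from 92.2% to 23.7% in KO mESCs. In MEFs it fell from 58.6% to 13.8% in WT and from 90.0% to 57.9% in KO. Over all genes the last bin had 12.5% (WT) and 16.8% (KO) in mESCs, then 2.34% (WT) and 13.7% (KO) in MEFs. For the members the last bin thus differed by more between genotypes in MEFs than in mESCs.

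**Figure D5:**
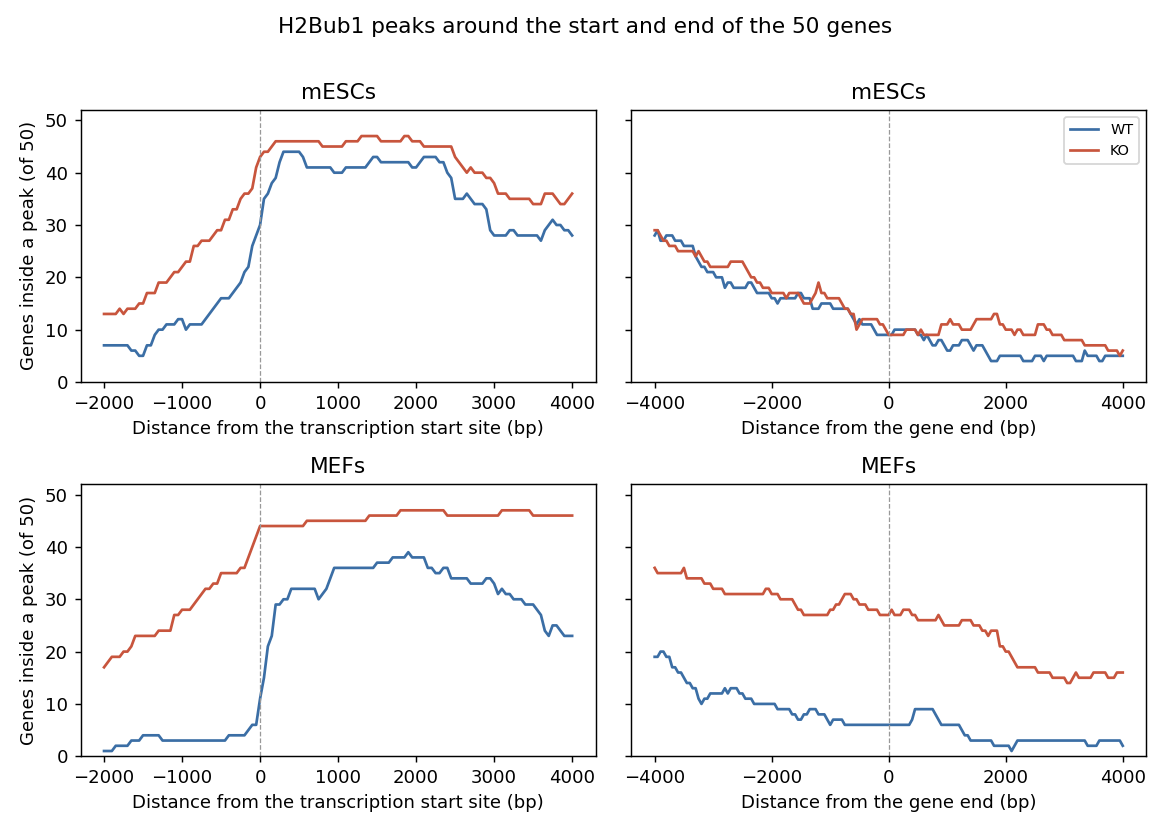
Number of the 50 genes inside an H2Bub1 peak at each distance from the TSS (left, bp) and from the gene end (right, bp), in steps of 50 bp, for WT and KO in mESCs (top) and MEFs (bottom). At the TSS, peaks covered 11 genes in WT MEFs but 44 in KO MEFs, and the genotypes run together at the gene end in mESCs, with 9 genes each.

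The other genes of splicing were taken from a list of 111 symbols of further spliceosome and splicing factor genes, of which 109 were found. Pol II stood at the promoter of 101 of 109 (92.7%) in each MEF library, and of 81 (74.3%) in WT mESCs but 73 (67.0%) in KO mESCs. H2Bub1 covered share was higher in KO at 105 (96.3%) in MEFs and lower at 1, and in mESCs it was higher at 92 (84.4%) and lower at 14 (12.8%). Their medians were 17.3% (WT) and 59.7% (KO) in MEFs, then 21.9% and 43.4% in mESCs, which lie below those of the 50 members in each library. A downstream Pol II peak was present at 82 in WT and 51 in KO MEFs, and at 43 and 26 in mESCs. The median Pol II promoter fold was 15.7 and 13.6 in MEFs and 4.57 and 5.08 in mESCs. The median length of these genes was 19061 bp, against 10446.5 bp for the members and 17685 bp for the Sf3 members, whose H2Bub1 medians were above theirs in both mESC libraries and in KO MEFs but below in WT MEFs. The part of gene length in these shares was not tested.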

How the data were processed

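Of 16 labelled samples, the 8 with an antibody against H2Bub1 or RPB1 were used, and the other 8, inputs and Ser2-phosphorylated Pol II, were not analysed here. Per the labels, single-end reads were aligned to mm10 with Bowtie 1.0.0 and peaks were called with MACS2 2.1.1.20160309, after base calling with bcl2fastq 2.17.1.14. The control and the thresholds of the calls are not given in the sources used here, and neither is the read depth of each list. The lowest -log10 q in a list was 1.00 to 1.01 for H2Bub1 and 1.33 to 1.42 for Pol II. The H2Bub1 lists thus reach down to weaker q values than the Pol II lists. The authors scaled H2Bub1 signal over intergenic regions and Pol II signal by mapped reads, and how this entered the calls is unknown. In the Pol II lists the fold that the authors deposited divides the height of a peak by its local background, as a linear ratio. The H2Bub1 lists give no summit, so their fold, also a linear ratio, is not read as a height. Neither fold gives an absolute level between libraries. The deposited -log10 p and -log10 q values served for the alternatives alone, and the Pol II lists also give the summit as an offset in bp, as the authors deposited it. A deeper library gives more and wider peaks at one threshold.

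Peaks were set against GENCODE M21 (GRCm38), at 1-based positions, with the tests of overlap given beside each result (at least 1 bp). Where several peaks met a promoter window the one of the highest fold was taken. Shares, medians and counts were computed with Python 3.11.15, numpy 2.4.6 and pandas 2.3.3, and the functions were tested on simulated peaks. No p-value was computed, since each group has 1 library. Promoter sequences came from a RefSeq table of GRCm38.p6, and where a gene had several starts the one nearest the gene-record TSS was taken for members and the first one for other genes. The members and lists were chosen with earlier results of these data known. Members given in full are those whose promoter call differed between genotypes or cell types or was absent throughout, the 2 of highest mean fold per family, the 5 largest and 5 smallest H2Bub1 differences and the 3 largest and 3 smallest Pol II ratios per cell type, 7 well known members, and the 3 with most Pol II covered bases. The following alternatives were tried, equal list lengths, peaks limited to a -log10 q of 3 or more, a window from 100 bp upstream to 300 bp downstream, the summit in the window or body, a gene body from 1000 bp past the TSS, peaks less than 1000 bp apart joined, isolated members and members without overlap. An alternative counted as inside where its value lay within the exact 95% binomial interval of the main share or median, which reflects the spread over genes alone.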

Additional observations from a re-analysis of the deposited data

Results flagged for a closer look

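The direction of the H2Bub1 difference between KO and WT was opposite in the 2 cell types for 14 of the 50 genes, lower in KO mESCs and higher in KO MEFs. Each cell type has 1 library per genotype, and the difference between the cell types was not tested. In percentage points of the gene, KO minus WT in mESCs was -24.6 for Hnrnpa1, -14.2 for Hnrnpa3 and -9.46 for Hnrnpd. It was -6.37 for Hnrnpk, -5.34 for Hnrnpa2b1, -3.96 for Hnrnpu and -2.99 for Hnrnpl. Among the snRNP and SF3 genes it was -23.4 for Snrpb, -13.1 for Sf3a3 and -7.22 for Sf3b3. Among the Srsf genes it was -6.83 for Srsf7 and close to 0 for Srsf6 (-0.912), Srsf5 (-0.32) and Srsf1 (-0.172). Over all autosomal protein-coding genes 1051 (5.05%) had this pattern, and 24 of the 78 ribosomal protein genes (30.8%) did.

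The Pol II promoter fold of Hnrnpa2b1 was opposite as well by at least 1.5 fold in each cell type, with a log2 ratio of KO to WT of 0.60 in mESCs and -0.71 in MEFs. Of the 36 members with both ratios no other met this size in opposite directions, but Srsf7, with 0.77 in mESCs and -0.58 in MEFs, fell just short of it in MEFs. The peak of Hnrnpa2b1 is shared with Cbx3, and the difference was not tested.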

How the results depend on the processing

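Of 148 alternative values of the 30 counts and medians over the members, 129 lay within the interval of the main value and kept its direction. Of the rest, 18 lay outside and 1 turned in direction. The interval reflects the spread over genes and is wide, for example 66.3% to 90.0% for promoter calls in WT mESCs. Lying inside it therefore does not show that the processing had no effect. None of the 152 alternative values of single genes changed sign except 3, all with a -log10 q of at least 3, where KO minus WT H2Bub1 share in mESCs became 0.852 points for Hnrnpd, 11.8 for Sf3a3 and 0.288 for Snrpb. With that limit the median H2Bub1 share was 32.3% in WT mESCs and 0% in WT MEFs. For the 18 members at least 5000 bp from other genes, the median H2Bub1 share in mESCs was 33.5% (WT) and 42.8% (KO), the median log2 ratio of Pol II fold in mESCs turned to -0.10, and Pol II body peaks stood at 22.2% (WT mESCs), 27.8% (KO mESCs) and 55.6% (KO MEFs). In the same members the body share was higher in KO at 11.1% in mESCs and lower at 61.1% in MEFs, and a peak past the gene end was called at 38.9% in WT mESCs (44% for members with no neighbour past the end). These use fewer genes, and the cause was not tested. With the summit required in the body, body peaks stood at 20% for either mESC library and at 58% for KO MEFs. The share of promoters called in KO MEFs only was 0% with the narrow window, the summit in the window, the isolated members or any coding transcript start. The limits on Pol II in the body and past the gene end, the transcript starts and the lists of strongly occupied genes were chosen after seeing the data. No paired analysis was possible because each group has 1 library and the result comes from no test. The unknown read depth limits every comparison of list lengths, covered shares and calls near the threshold, and counts over genes do not stand in for replicates.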
